A study of Homo sapiens with 15 samples.

Results

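P-type ATPases are membrane pumps that move ions or lipids across membranes by passing the phosphate of ATP through a conserved aspartate of the pump itself. The list held 32 human genes named for this family and drawn up by function, and 30 of them had a probe that carried their name or accession on the microarray. The expression of ATP7A and ATP13A3 was not analysed here, and both entered only the promoter search. The 30 pumps were measured by 56 of the 41000 probes of the array, which covered 30992 named genes in all. By what they carry, the list split into 1 sodium/potassium pump, 9 calcium pumps, 2 copper pumps, 13 phospholipid pumps and 7 others, which move protons and potassium, polyamines or cargo that is less well known.

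The measurements came from MDA-MB231, an established human breast cancer line of mesenchymal, triple-negative type. Each of 15 two-colour arrays compared treated cells, labelled with Cy5, with control cells, labelled with Cy3. In 5 arrays the treated cells carried a stable shRNA against CtBP2, a transcriptional co-repressor of the CtBP family, and had been selected with puromycin. In another 5 the cells had received HIPP (sodium 2-hydroxyimino-3-phenylpropanoate), and in the last 5 P4 (sodium 2-hydrazone-3-phenylpropanoate), both small molecules made to block the substrate pocket of CtBP. HIPP carries an oxime and P4 a hydrazone on the same phenylpropanoate backbone. The labels gave 24 h for every sample and called every control untreated, while the methods named a scrambled shRNA for the knockdown. The concentrations used for the arrays were not given in the sources used here, and the study used different concentrations of the 2 compounds in its cell assays. Dyes were never swapped, so an effect of the dye and an effect of the treatment cannot be told apart. In bulk RNA of this kind, fewer cells with a transcript and less transcript per cell cannot be told apart either.

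Some facts of the whole series bear on every value that follows. Treatments were spread unevenly over 4 slides. The knockdown arrays 1 and 2 shared slide 3 with HIPP arrays 4 and 5, and the knockdown arrays 3 to 5 had slide 4 to themselves. HIPP arrays 1 to 3 shared slide 2 with P4 array 5, and P4 arrays 1 to 4 made up slide 1. The slide 1 arrays were scanned on a different day from all other arrays. For them an effect of the scan day and an effect of P4 cannot be told apart. Between 65.2% and 77.5% of gene spots rose well above background for treated RNA and between 64.9% and 81.0% for control RNA, array by array, and the number of arrays limits the precision. Nothing in the labels said whether arrays of a treatment came from separate cultures, so the p-values measure the spread between arrays, which may be technical. CTBP2 itself had a log2 ratio of -0.41 ± 0.11 (SD, n = 5) in the shCtBP2 arrays, lower on 5 of 5, with a limma adjusted p of 0.0602. Against scramble cells, the study reported a significant decrease of CtBP2 mRNA by real-time PCR and of its protein by western blot. On the arrays CTBP2 was at 0.57 ± 0.36 in HIPP (limma adjusted p = 0.0026, n = 5) and at 0.17 ± 0.35 in P4. In the control channel the 5 mesenchymal markers were well above background on all 15 arrays, and PGR, CDH1 and KRT5 were well above background on none. Against the usual description of the line, ERBB2, EPCAM, KRT14 and DSP were well above background on all 15 arrays, ESR1 on 11 and TP63 on 3. Of the blood cell markers, CD3E was so on 14 arrays and PTPRC on 2.

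Sodium/potassium pumps keep the sodium and potassium gradients of the cell. Calcium pumps clear calcium from the cytosol into the endoplasmic reticulum (SERCA, the ATP2A genes), out of the cell (PMCA, the ATP2B genes) or into the Golgi (SPCA, the ATP2C genes). The P4-ATPases, which share only a name with the compound P4, are flippases that move phospholipids to the cytosolic face of membranes, and calcium release and loss of flippase activity are both known to expose phosphatidylserine on dying cells.

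The probes behind the largest changes are shown first, because the ratios of several pumps depended on which probe was read. Each line gives the first 30 bases of a 60-base probe, 5′ to 3′, as the array design lists it, in lower case throughout.
ATP10A probe 1: aatggttgcgagcaccaagtacaaggacta
ATP10A probe 2: tgtaggtattacatccctggtgtcgtattt
ATP10A probe 3: ttttccccacacaacttcagctggcacgtc
ATP9A probe 1: tgtgatgacacacatatgatctttcgtgtt
ATP9A probe 2: tacccagaacgagatgattttcaaacggct
ATP10D probe 1: cctatgtgaacaatcgaatacgaacaacaa
ATP10D probe 2: tcaggttccaatcaagagaagaccttttat
ATP12A: cggaagctcttcatcaggctctaccctgga
ATP8A2: actcgtctgcagtgcttagcctaacttttg
ATP2C2: tccatcaccggatcagtttttcctcttagg
In build hg17, which the array annotation used, the ATP10A probes lay on the minus strand at chr15:23473754-23473813, chr15:23474968-23475027 and chr15:23476126-23476185. The ATP9A probes lay at chr20:49646766-49646825 and chr20:49719989-49720048, and the ATP10D probes at chr4:47355694-47355753 and chr4:47435042-47435101. ATP12A, ATP8A2 and ATP2C2 had 1 probe each, at chr13:24183517-24183660, chr13:25492329-25492388 and chr16:83054944-83055003. The ATP12A interval is wider than its probe, as for a sequence that spans an intron. The array listed ATP2C2 under an older name, KIAA0703, and it was matched by accession. Exon and UTR positions of the probes were not analysed here.

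The log2 ratio of treated over control signal was averaged over the probes of a gene. A gene was called up-regulated or down-regulated where the Benjamini-Hochberg adjusted p of limma over all genes tested was under 0.05 and the fold change reached the threshold in the study's methods, 1.5 for shCtBP2, 2.5 for HIPP and 1.8 for P4. A gene was tested in a treatment where at least 3 of its 5 arrays were measured and its signals varied enough over the 10 channels. That left 27 pumps tested in shCtBP2, 26 in HIPP and 24 in P4, and 21 in all 3.

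Knockdown of CtBP2 changed 4 pumps past its threshold, and neither compound changed any past its own. With normexp correction and loess the 4 fell to 0, with 269 of all genes still called in shCtBP2 against 1807, and in HIPP leaving out 1 array gave 0 to 2 calls. Of the 4, the control channel of ATP8A2 and ATP2C2 was well above background on 0 of 5 shCtBP2 arrays and that of ATP12A on 2 of 5. ATP8A2, ATP12A and ATP2C2 were called up-regulated and ATP10A was called down-regulated in shCtBP2, 4 of 27 pumps tested beside 6.55% of all genes (3.34% up-regulated and 3.22% down-regulated). In HIPP, limma called 0 of 26 (7.05% of all genes), with 14 pumps at an unadjusted p under 0.05 and 0 called by the methods' t-test. In P4, limma called 0 of 24 (8.46% of all genes), with 7 at an unadjusted p under 0.05 and 0 called by the methods' t-test. The thresholds differ, and at a common fold change of 1.5 the counts were 4 in shCtBP2 (6.55% of all genes), 5 in HIPP (32.6%) and 1 in P4 (17.5%).

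At any fold change, 8 of 27 pumps passed the limma adjusted p in shCtBP2, 5 higher and 3 lower, where 13.4% of all genes passed (6.52% higher and 6.87% lower). Leaving out any 1 shCtBP2 array gave 4 to 5, and normexp correction with loess gave 3 (2442 of all genes, against 3694). In HIPP 11 of 26 passed, 6 higher and 5 lower, beside 48.7% of all genes (24.8% and 23.9%). Normexp correction with loess gave 5 in HIPP (9365 of all genes, against 13429), and the methods' t-test gave 2 (5117). In P4 3 of 24 passed, 2 higher and 1 lower, beside 31.8% of all genes (17% and 14.8%). Without 1 array the P4 count was 2 to 6, and with the methods' t-test it was 0 (1272 of all genes, against 8776). The median log2 ratio of the pumps tested was -0.01 in shCtBP2, 0.04 in HIPP and 0.18 in P4, and that of all genes was 0.04, 0.08 and 0.11. Of the 30 pumps with a probe, 12 passed in no treatment, 14 in 1, 4 in 2 and 0 in all 3, beside 44.1%, 31.3%, 20.6% and 3.95% of the 30685 genes tested in at least 1 treatment.

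**Figure D1:**
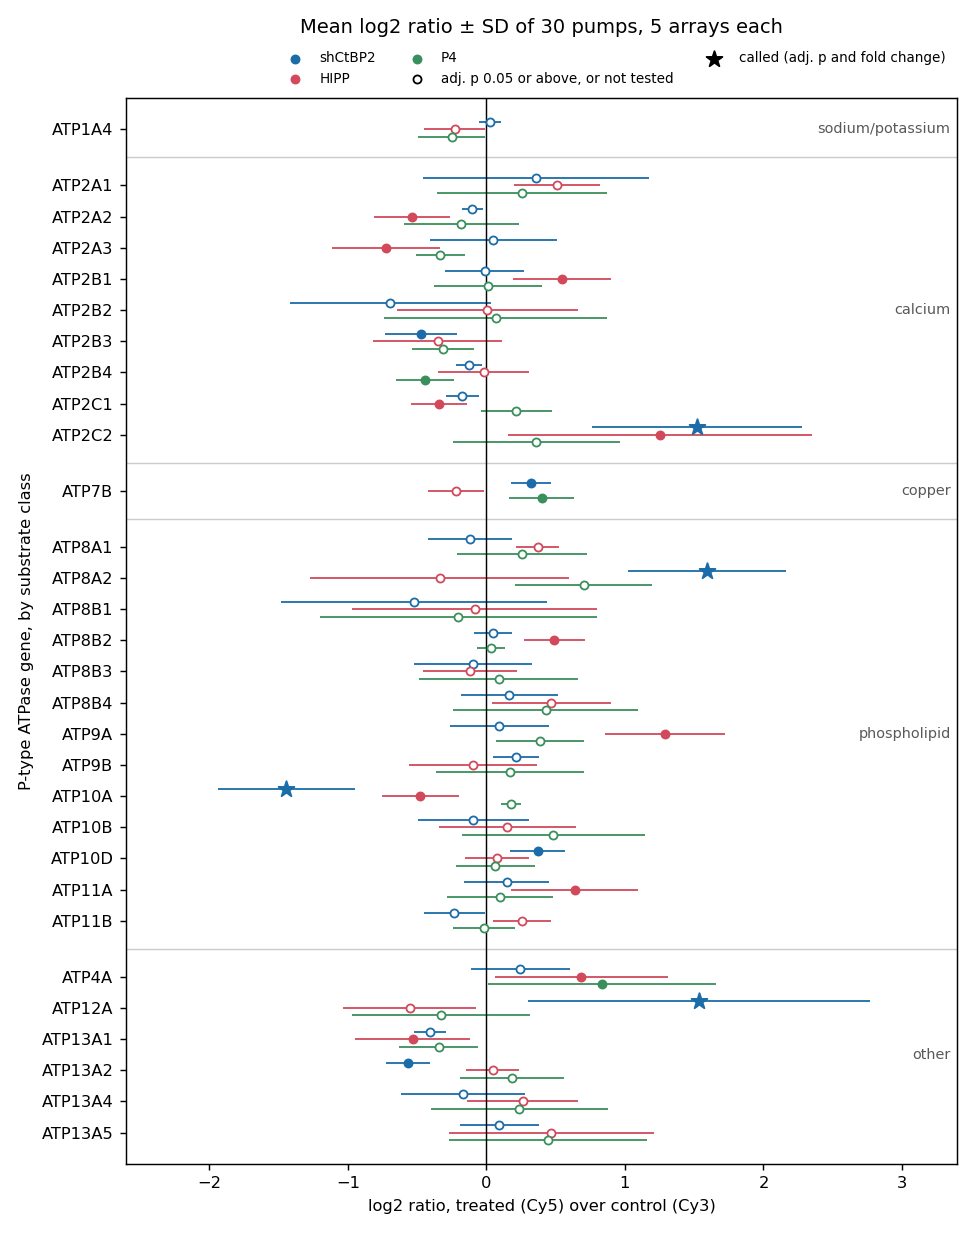
Mean log2 ratio of treated over control signal for the 30 pumps with a probe (rows, grouped by what they carry) in each treatment, with bars of 1 SD over 5 arrays. In shCtBP2, ATP8A2, ATP12A and ATP2C2 stand between 1.52 and 1.59 and ATP10A at -1.44, and in HIPP ATP9A stands at 1.29.

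Whether a pump could be measured at all differed between members. In the control channel 18 pumps were well above background on all 15 arrays, and 17 were so in both channels of every array. ATP2B2, ATP13A4 and ATP13A5 were well above background in neither channel of any array, and ATP8B4 in no control channel and 1 treated channel. The other 8 lay in between. A pump counted as well above background where at least 1 of its probes was. Of the 4 called pumps, only ATP10A was so in both channels of every array, though its probe 1 was so on no array. After normexp correction and normalization, its mean log2 signals in shCtBP2 were 6.87 treated and 7.37 control. Those of ATP2B2, never well above background, were 6.70 and 6.74.

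ATP1A4, the sodium pump catalytic subunit known from sperm, was tested only in shCtBP2, where its log2 ratio was 0.03 ± 0.08 (n = 5). It was at -0.23 ± 0.22 in HIPP and -0.25 ± 0.24 in P4, where it was too invariable for the test.

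Among the calcium pumps, ATP2C2 was the only one called. ATP2C2 is the second SPCA pump, which carries calcium and manganese into the Golgi and is known from secretory epithelium such as breast. Its log2 ratios in the shCtBP2 arrays, replicates 1 to 5, were 2.34, 2.18, 1.33, 1.31 and 0.46, a mean of 1.52 ± 0.76 (limma adjusted p = 0.00954, n = 5). All 5 were above 0, and the slide 3 arrays (mean 2.26) were higher than the slide 4 arrays (mean 1.03). The probe was well above background in 1 treated channel and in no control channel, so no fold or direction is read from this ratio. With normexp correction and loess the shCtBP2 ratio was 0.10 (limma adjusted p = 0.23, n = 5), which ends the call. In HIPP its values were 2.45, 2.40, 0.31, 0.87 and 0.24, a mean of 1.25 ± 1.09 with a limma adjusted p of 0.00759 (n = 5), below the fold threshold. There the probe was well above background in 2 treated channels and 1 control channel, so the size of the ratio is not exact. In P4 they were -0.42, 1.14, -0.03, 0.62 and 0.49. The P4 values lay on both sides of 0.

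HIPP moved 4 more calcium pumps by a limma adjusted p under 0.05 without reaching its fold threshold. The SERCA pumps ATP2A2 (-0.54 ± 0.28, limma adjusted p = 0.00367, n = 5) and ATP2A3 (-0.72 ± 0.39, limma adjusted p = 0.00159, n = 5) were lower on 5 of 5 arrays. ATP2A2, the housekeeping pump of the endoplasmic reticulum, was well above background in both channels of each array. ATP2A3 was so in no treated and 3 control channels, and with normexp correction and loess its ratio was 0.0029. The Golgi pump ATP2C1 was at -0.34 ± 0.20 (limma adjusted p = 0.0113, n = 5), also lower on 5 of 5, though its brightest probe read 0.16. ATP2B1, the main plasma membrane pump, rose by 0.54 ± 0.36 (limma adjusted p = 0.00835, n = 5) and was higher on 5 of 5 arrays.

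In the other treatments 1 further calcium pump passed in each. ATP2B3, a PMCA pump known from nervous tissue, was at -0.47 ± 0.26 in shCtBP2 (limma adjusted p = 0.0477, n = 5), and ATP2B4, a widely expressed PMCA pump, at -0.44 ± 0.21 in P4 (limma adjusted p = 0.00791, n = 5). Both were lower on 5 of 5 arrays, but in each the dimmer of 2 probes carried the decrease. For ATP2B3 probe 1, well above background in no channel of any shCtBP2 array, read -0.92 and the brighter probe 2 read -0.02, and the gene no longer passed when any 1 shCtBP2 array was left out (limma adjusted p of 0.0634 to 0.184). For ATP2B4 in P4, probe 1 read -0.80 and the brighter probe 2 read -0.09. ATP2A1, the fast-muscle SERCA pump, passed in no treatment, with means of 0.36 to 0.51 outside P4 and 0.26 in P4. ATP2B2 had means of -0.69, 0.01 and 0.07, read from signals that were never well above background. Over the class, 2 of 7 tested pumps passed in shCtBP2, 5 of 9 in HIPP and 1 of 8 in P4, beside 13.4%, 48.7% and 31.8% of all genes, and the class medians were -0.12, -0.02 and 0.04.

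ATP7B, the copper pump that loads ceruloplasmin in liver, was higher on 5 of 5 arrays in shCtBP2, from 0.11 to 0.49 (mean 0.32 ± 0.14, limma adjusted p = 0.0477, n = 5), though it no longer passed when any 1 of these arrays was left out (limma adjusted p of 0.0551 to 0.158). It was also higher on 5 of 5 in P4, from 0.15 to 0.66 (mean 0.40 ± 0.24, limma adjusted p = 0.00781, n = 5). In HIPP it was not tested, and its mean was -0.22 ± 0.20. The first 2 treatments thus lay above 0 on each array, at changes below the fold thresholds.

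Among the phospholipid pumps, ATP10A was down-regulated and ATP8A2 up-regulated in shCtBP2. ATP10A, a flippase known to move phosphatidylcholine at the plasma membrane, had log2 ratios of -0.97, -0.98, -1.45, -2.14 and -1.68 there. The mean of -1.44 ± 0.49 was a 2.72-fold decrease (limma adjusted p = 2.11e-05, n = 5), below 0 on 5 of 5 arrays and on both slides (-0.98 on slide 3 and -1.76 on slide 4). In HIPP the values were -0.83, -0.33, -0.39, -0.14 and -0.69, a mean of -0.48 ± 0.28 (limma adjusted p = 0.0141, n = 5) that no longer passed without replicate 1 or 5 (limma adjusted p = 0.0565 and 0.0571). In P4 they were 0.13, 0.09, 0.19, 0.20 and 0.28, a mean of 0.18 ± 0.07 (limma adjusted p = 0.355, n = 5). On this mean over 3 probes, every P4 value lay above every HIPP value, and the highest shCtBP2 value lay below the lowest HIPP value. On single probes the shCtBP2 and HIPP arrays overlapped. Probe 2 read -2.70 in HIPP replicate 5, below -2.42 in shCtBP2 replicate 2. Probe 3 read 0.00 and 0.06 in the slide 3 arrays of shCtBP2, above -0.54 in HIPP replicate 3. With normexp correction and loess the shCtBP2 ratio was -0.51 (limma adjusted p = 0.00249, n = 5), in the same direction and below the fold threshold.

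ATP8A2, a flippase for phosphatidylserine known from brain, retina and testis, had log2 ratios of 1.79, 2.17, 1.96, 0.75 and 1.30 in shCtBP2. The mean was 1.59 ± 0.57 (limma adjusted p = 0.00224, n = 5), with 1.98 on slide 3 and 1.34 on slide 4. Its probe was well above background in 3 treated channels and in no control channel. With the dim control set at the lowest signal that was well above background, the mean treated signal was at least 1.05-fold higher. That mean includes treated signals that were not well above background. In HIPP the values were 0.09, 1.11, -1.10, -0.90 and -0.89 (mean -0.34 ± 0.93), and in P4 they were 1.17, 1.08, 0.25, 0.91 and 0.10 (mean 0.70 ± 0.50, limma adjusted p = 0.0742, n = 5). In HIPP and P4 the probe was well above background in no treated channel and 1 control channel, so neither sign nor size is read from these values. With normexp correction and loess the shCtBP2 ratio was 0.07 (limma adjusted p = 0.497, n = 5), and with background-subtracted signals it was 1.54 (limma adjusted p = 0.103, n = 5).

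ATP9A, a flippase-family pump of endosomes, had the highest mean ratio of the family in HIPP, close to 1.25 for ATP2C2 on its dim probe. Without 1 array ATP2C2 was at 0.95 to 1.51 and ATP9A at 1.18 to 1.42, so the rank is not firm. The ATP9A arrays read 0.87, 1.73, 1.55, 0.78 and 1.53, a mean of 1.29 ± 0.43 and a 2.45-fold increase (limma adjusted p = 1.31e-05, n = 5), just under the threshold of 2.5. It was well above background in both channels of every array, and the mean was 1.38 on slide 2 and 1.15 on slide 3. In P4 the values were 0.78, 0.56, -0.02, 0.16 and 0.45 (mean 0.39 ± 0.32, limma adjusted p = 0.0807, n = 5), and in shCtBP2 they were 0.24, 0.14, -0.49, 0.10 and 0.48 (mean 0.09 ± 0.36). The HIPP values overlapped only the top P4 value, and all lay above those of shCtBP2.

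ATP8B2, ATP11A and ATP10D also passed the adjusted p, below the fold thresholds. ATP8B2 (0.49 ± 0.22, limma adjusted p = 0.000355, n = 5) and ATP11A (0.64 ± 0.46, limma adjusted p = 0.00552, n = 5), both flippases of the plasma membrane, were higher on 5 of 5 arrays in HIPP. For ATP8B2 the brightest probe, probe 3, read 0.13 (limma adjusted p = 0.382, n = 5) and the dimmest, probe 1, read 0.85. For ATP11A the sign turned with normexp correction and loess, to -0.02, and on its bright probe 3, which read -0.37. ATP10D, which moves glucosylceramide, was higher on 5 of 5 arrays in shCtBP2, at 0.37 ± 0.20 (limma adjusted p = 0.0453, n = 5). Its probes there read 0.69 (limma adjusted p = 0.0809, n = 5) and 0.06, so neither passed by itself, and the gene no longer passed when any 1 shCtBP2 array was left out (limma adjusted p of 0.0516 to 0.169). ATP8A1, ATP8B1, ATP8B3, ATP8B4, ATP9B, ATP10B and ATP11B passed in no treatment, with means between -0.52 (ATP8B1 in shCtBP2) and 0.48 (ATP10B in P4). ATP8B1, the flippase mutated in inherited cholestasis, was well above background in 7 control channels and no treated channel. Over the class, 3 of 12 passed in shCtBP2, 4 of 12 in HIPP and 0 of 11 in P4, beside 13.4%, 48.7% and 31.8% of all genes. In P4 3 of the 11 had an unadjusted limma p under 0.05, and the methods' t-test passed 0 pumps of the family there. The class medians were -0.00, 0.11 and 0.18.

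Among the remaining pumps, ATP12A was up-regulated in shCtBP2 on 1 slide only. ATP12A is the non-gastric proton/potassium pump of colon and airway, and its log2 ratios were 0.25 and 0.18 on slide 3 and 1.96, 2.60 and 2.69 on slide 4. The slide means of 0.22 and 2.41 did not overlap, and the mean of all 5 was 1.54 ± 1.24, above the fold threshold (limma adjusted p = 0.00943, n = 5). The probe was well above background in 4 treated and 2 control channels, so the size of the ratio is not exact. Without shCtBP2 replicate 4 the ratio was 1.27 (limma adjusted p = 0.0523), with slide as a fixed block 0.79 (limma adjusted p = 0.225), and with normexp correction and loess 0.25 (limma adjusted p = 0.0128). In HIPP the values were -0.58, -0.68, -0.30, -1.25 and 0.04, and in P4 they were -1.43, 0.10, -0.18, 0.14 and -0.27. Neither compound gave a call. Every value under HIPP or P4 lay below every shCtBP2 value, but narrowly, with 0.14 the highest P4 value and 0.18 the lowest shCtBP2 value. The probe was well above background in 1 treated channel in HIPP and in none in P4, so no separation is read from these values.

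ATP4A, the gastric acid pump, was higher on 5 of 5 arrays in HIPP (0.69 ± 0.62, limma adjusted p = 0.042, n = 5) and in P4 (0.84 ± 0.82, limma adjusted p = 0.025, n = 5). It was well above background in 4 treated and 3 control channels in HIPP and in 2 and 1 in P4. Without HIPP replicate 2, which read 1.75, the HIPP ratio was 0.42 (limma adjusted p = 0.198), and without replicate 1 or 5 it no longer passed (limma adjusted p = 0.0714 and 0.0717). In P4 it did not pass without replicate 2 (0.57, limma adjusted p = 0.104) or 3 (0.66, limma adjusted p = 0.0963). Its P4 fold change of 1.78 lay just under the threshold of 1.8, and without replicate 1, 4 or 5 it was called (0.97, 1.01 and 0.97). ATP13A2, the lysosomal polyamine exporter whose loss causes a form of parkinsonism, was lower on 5 of 5 arrays in shCtBP2, from -0.80 to -0.40 (mean -0.57 ± 0.16, limma adjusted p = 0.0067, n = 5). It was at 0.05 ± 0.19 in HIPP and 0.18 ± 0.37 in P4. ATP13A1, which removes misinserted proteins from the endoplasmic reticulum, was lower on 4 of 5 arrays in HIPP (-0.53 ± 0.41, limma adjusted p = 0.00426, n = 5). ATP13A4 and ATP13A5 passed in no treatment, with means from -0.17 to 0.47 from dim probes.

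**Figure D2:**
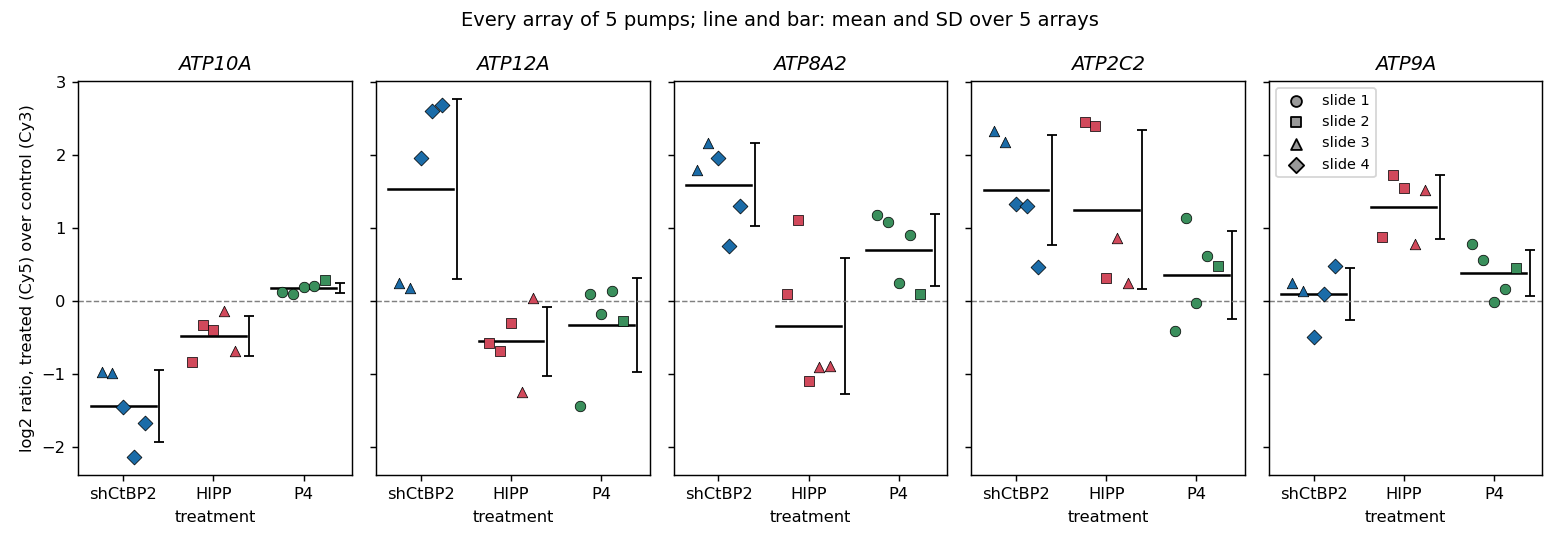
Log2 ratio of each array for the called pumps and ATP9A, by treatment, with a symbol for the slide of each array, the mean as a line and 1 SD as a bar. For ATP12A the shCtBP2 arrays fall at 0.18 to 0.25 on slide 3 and 1.96 to 2.69 on slide 4, whereas ATP10A is below 0 on both slides.

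Single probes gave a different account of several pumps. All 56 probes of the family were fitted one by one among all probes of the array, and the probes named here were chosen after their values were seen. In shCtBP2 11 of 53 tested probes passed the limma adjusted p (14% of all probes) and 7 were called (6.9%), in HIPP 24 of 49 passed (51.3%) and 3 were called (8.45%), and in P4 13 of 50 passed (33.1%) and 2 were called (9.51%). Of the 16 pumps with more than 1 probe, 3 had probes that passed in opposite directions in HIPP (ATP2B3, ATP10D and ATP11B), beside 11.7% of the 7512 genes with more than 1 probe. In P4 there were also 3 (ATP1A4, ATP8B2 and ATP11B), beside 3.42% of those genes. Nothing particular to the pumps is read from these counts.

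For ATP10A most of the decrease was read by probe 2. Its shCtBP2 log2 ratios were -3.05, -2.42, -3.41, -3.40 and -3.47, a mean of -3.15 ± 0.44 and an 8.88-fold decrease (limma adjusted p = 8.86e-07, n = 5). The same probe read -1.56, -1.19, -1.34, -0.39 and -2.70 in HIPP (mean -1.44 ± 0.83, limma adjusted p = 0.000109, n = 5) and 0.14 ± 0.13 in P4. Every shCtBP2 and HIPP array was lower on this probe, and the P4 arrays stayed near 0. Probe 3, the next one along, read 0.00 and 0.06 on slide 3 and -1.19, -2.28 and -1.61 on slide 4 in shCtBP2 (limma adjusted p = 0.0251, n = 5), and 0.05 in HIPP. Probe 1 was well above background on no array and read -0.18 ± 0.45.

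For ATP9A probe 1 carried the increase and was higher on all arrays of each treatment. In HIPP it read 1.83, 2.25, 2.21, 1.27 and 1.77, a mean of 1.87 ± 0.40 and a 3.64-fold increase (limma adjusted p = 3.81e-07, n = 5). In P4 it read 1.19, 1.37, 0.75, 0.60 and 0.78 (mean 0.94 ± 0.33, 1.91-fold, limma adjusted p = 0.000715, n = 5). In shCtBP2 it read 0.17, 0.81, 0.21, 1.07 and 0.90 (mean 0.63 ± 0.41, limma adjusted p = 0.0205, n = 5). On this bright probe ATP9A passed the fold threshold of each treatment, which the mean over both probes did in none. The dimmer probe 2 read 0.72 ± 0.60 in HIPP (limma adjusted p = 0.0195, n = 5), -0.45 in shCtBP2 and -0.16 in P4.

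ATP10D in HIPP is the clearest case of a mean that hides its probes. Probe 1 read 1.43, 1.64, 0.73, 1.46 and 1.18 (mean 1.29 ± 0.35, limma adjusted p = 0.000542, n = 5), and probe 2 read -0.58, -1.33, -0.67, -1.53 and -1.58 (mean -1.14 ± 0.48, limma adjusted p = 9.11e-05, n = 5). Both were well above background on each HIPP array, and the gene mean was 0.08. ATP11B, an endosomal flippase, had probe 1 at 0.96 ± 0.23 (limma adjusted p = 4.37e-05, n = 5) and probe 5 at -1.06 ± 0.42 (limma adjusted p = 9.57e-06, n = 5) in HIPP. In P4 the ATP11B probes 4 and 5 read 0.49 and -0.44. For ATP1A4, probe 1 was lower on 5 of 5 arrays in HIPP (-0.93 ± 0.41, limma adjusted p = 0.000367, n = 5) and in P4 (-1.18 ± 0.52, limma adjusted p = 0.000161, n = 5), while probe 3, well above background on no P4 array, read 0.58 in P4. For ATP2C1, probe 3 rose by 0.69 ± 0.15 in P4 (limma adjusted p = 0.000124, n = 5), and probes 1 and 2 read -0.70 and -0.49 in HIPP. Whether the probes read different transcripts was not tested.

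**Figure D3:**
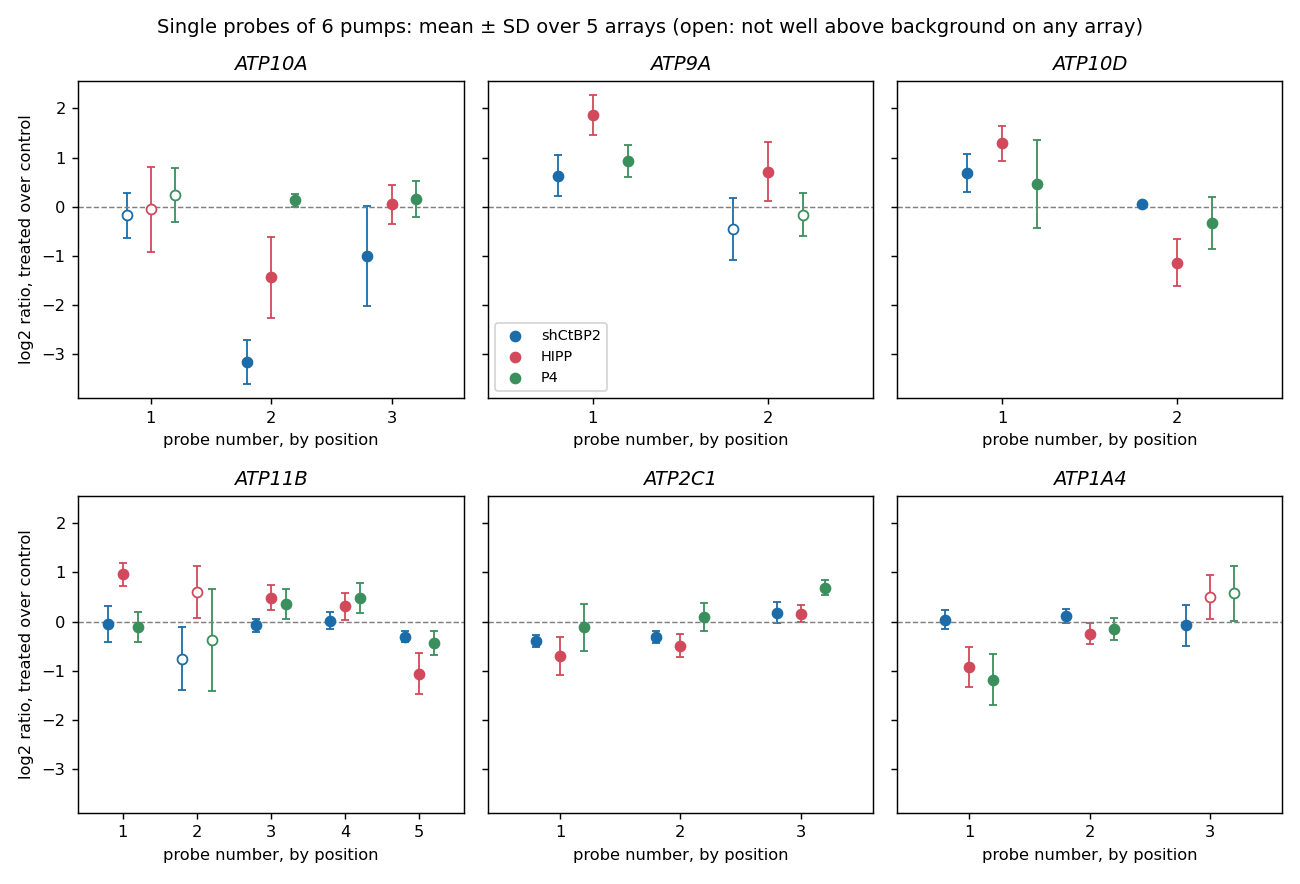
Mean log2 ratio of each probe of 6 pumps, by treatment, with bars of 1 SD over 5 arrays, and open points where a probe was well above background on no array of the treatment. ATP10A probe 2 lies near -3.15 in shCtBP2 while probe 1 lies near -0.18, and the ATP10D probes stand at 1.29 and -1.14 in HIPP.

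The difference between treatments was tested directly, as limma contrasts over all genes tested in both. HIPP and shCtBP2 differed for 5 of 23 pumps, 2 higher in HIPP and 3 lower, beside 26.3% of all genes (12.2% higher and 14.1% lower). P4 and shCtBP2 differed for 3 of 23, 2 higher in P4 and 1 lower, beside 11.9% (6.06% and 5.89%). HIPP and P4 differed for 2 of 22, 1 in each direction, beside 10.5% (4.39% and 6.15%). Doses of HIPP and P4 were not known to match, so their values are set side by side and the contrast is not a comparison of the compounds at equal dose.

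Between HIPP and shCtBP2 the fitted log2 difference for ATP8A2 was -1.93 (95% interval -2.80 to -1.07, limma adjusted p = 0.00241). On slide 3, which held 2 arrays of each, it was -2.87, and with slide as a fixed block its limma adjusted p was 0.00584. No HIPP treated channel and no shCtBP2 control channel of ATP8A2 was well above background, so neither sign nor size is read from this difference. For ATP12A the difference was -2.09 (-3.14 to -1.04, limma adjusted p = 0.00536), but -0.82 on slide 3. For ATP2A3 it was -0.77 (-1.25 to -0.29, limma adjusted p = 0.019), and -0.40 on slide 3. HIPP was higher than shCtBP2 for ATP9A by 1.20 (0.71 to 1.69, limma adjusted p = 0.00124) and by 0.96 on slide 3. It was less decreased for ATP10A by 0.97 (0.52 to 1.41, limma adjusted p = 0.00284) and by 0.56 on slide 3. All 5 differences kept their sign within slide 3, but with slide as a fixed block only ATP8A2 of the 5 passed, which set signals at background against each other, and the limma adjusted p was 0.0981 for ATP9A, 0.145 for ATP10A, 0.26 for ATP12A and 0.434 for ATP2A3. The ATP12A and ATP2A3 differences also came from probes that were not well above background in every channel.

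P4 and shCtBP2 shared no slide. ATP10A was higher in P4 than in shCtBP2 by 1.62 (1.18 to 2.07, limma adjusted p = 0.000181), ATP13A2 was higher by 0.75 (0.39 to 1.12, limma adjusted p = 0.0102), and ATP12A was lower by -1.87 (-2.92 to -0.81, limma adjusted p = 0.0234). The size of the ATP12A difference is not exact, since its probe was well above background in no treated P4 channel and in 2 of 5 control channels of either treatment. With slide as a fixed block the differences were 1.36 for ATP10A (limma adjusted p = 0.0783), 1.00 for ATP13A2 (0.179) and -0.57 for ATP12A (0.658). The 20 pumps that did not pass had 95% intervals reaching from -2.21 to 1.67.

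The log2 ratio of ATP9A was 1.29 in HIPP and 0.39 in P4, a difference of 0.90 (0.41 to 1.39, limma adjusted p = 0.0212) that was 0.93 on slide 2, where 3 HIPP arrays and 1 P4 array lay. ATP2C1 was at -0.34 in HIPP and 0.22 in P4, a difference of -0.56 (-0.87 to -0.25, limma adjusted p = 0.0215) and -0.60 on slide 2. With slide as a fixed block the limma adjusted p values were 0.452 and 0.42. For the 20 other pumps the 95% intervals together reached from -1.90 to 1.94.

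**Figure D4:**
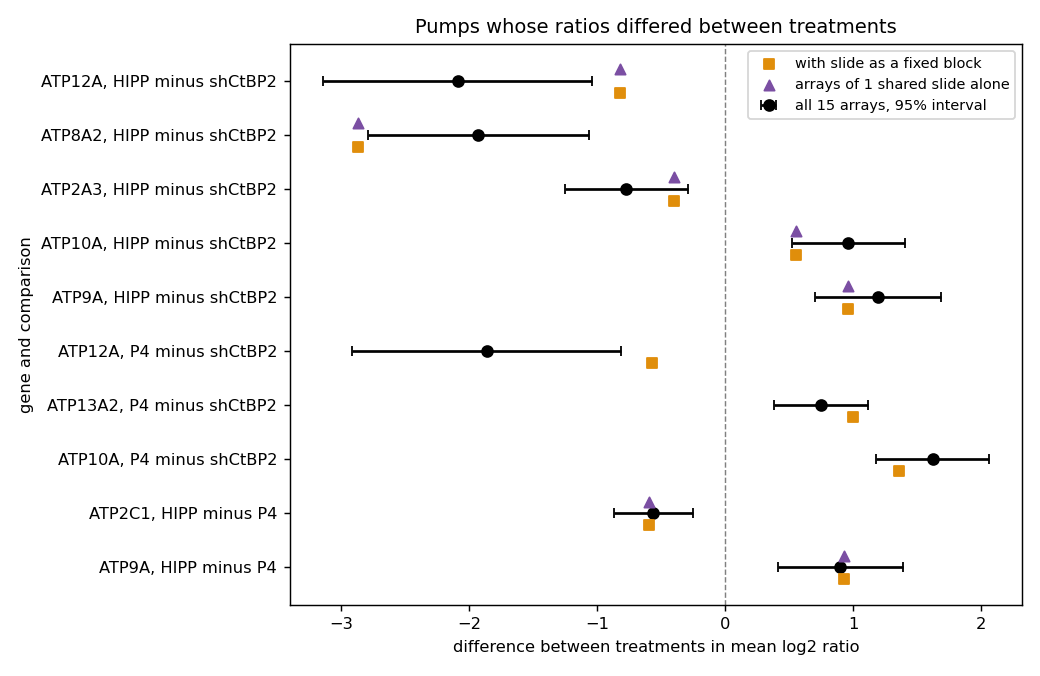
Log2 differences between treatments for the pumps that passed a contrast, with 95% intervals from the fit of 15 arrays (circles), the value with slide as a fixed block (squares) and, where the 2 treatments shared a slide, the value on that slide alone (triangles). The ATP8A2 difference of HIPP from shCtBP2 moves from -1.93 to -2.87 and the ATP12A difference from -2.09 to -0.82, both from dim probes.

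Genes that work with the pumps were read from 4 lists of 46 genes: accessory subunits, calcium channels with their sensors and exchangers, copper uptake and delivery, and phospholipid scramblases. In shCtBP2 5 of 39 tested genes passed the adjusted p and 4 were called, in HIPP 12 of 41 passed and 1 was called, and in P4 12 of 42 passed and 2 were called, to be read against the same shares of all genes as above.

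Of the 15 accessory subunits, the sodium pump regulators FXYD2 and FXYD7 were called up-regulated in shCtBP2. FXYD2 was at 0.87 ± 0.86 (limma adjusted p = 0.0357, n = 5) and FXYD7 at 1.17 ± 1.07 (limma adjusted p = 0.0456, n = 5), above 0 on 5 of 5 arrays each. The FXYD2 value rested on shCtBP2 replicate 1, which read 2.35 against 0.30 to 0.82 on the other 4, and without it the ratio was 0.50 (limma adjusted p = 0.135). After normexp and loess FXYD2 was at 0.41 (limma adjusted p = 0.145, n = 5) and FXYD7 at 0.07 (limma adjusted p = 0.51, n = 5). Without replicate 4 or 5 FXYD2 no longer passed either (limma adjusted p = 0.0651 and 0.0828). FXYD7 was well above background in 2 treated channels and no control channel, so no fold or direction is given. It no longer passed without replicate 1, 2 or 4 (limma adjusted p = 0.174, 0.189 and 0.106). In P4 the beta subunit of the gastric pump, ATP4B, was at 0.95 ± 1.08 (limma adjusted p = 0.023, n = 5) and FXYD1 at -0.97 ± 0.98 (limma adjusted p = 0.0179, n = 5), but neither was well above background in either channel of any P4 array, so no fold is given. ATP4B did not pass without P4 replicate 3 (0.51, limma adjusted p = 0.0851) or 4 (limma adjusted p = 0.066), nor FXYD1 without replicate 1 or 2 (limma adjusted p = 0.0681 and 0.0749).

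Of the 16 calcium genes, the store-operated channel subunit ORAI3 was up-regulated in shCtBP2 (0.85 ± 0.34, limma adjusted p = 0.00166, n = 5), higher on 5 of 5 arrays and well above background throughout. Its normexp and loess value was 0.40 (limma adjusted p = 0.00999, n = 5), below the fold threshold. SLC8A3, a sodium/calcium exchanger, was at 0.90 ± 0.72 in shCtBP2 (limma adjusted p = 0.0449, n = 5) with no control channel and 2 treated channels well above background, so no fold or direction is given, and it no longer passed without replicate 1, 2, 3 or 4 (limma adjusted p of 0.0582 to 0.19). ITPR2, a calcium release channel of the endoplasmic reticulum, was down-regulated in HIPP on 5 of 5 arrays, from -2.02 to -0.92 (mean -1.50 ± 0.44, limma adjusted p = 3.31e-06, n = 5). After normexp and loess it was -0.50 (limma adjusted p = 0.00158, n = 5), below the fold threshold. Its means were 0.11 in shCtBP2 and 0.19 in P4.

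None of the 8 copper genes and none of the 7 scramblases was called by limma. For the copper genes 0 of 7 tested passed the adjusted p at any fold change in shCtBP2, 2 of 5 in HIPP and 3 of 6 in P4. The shares of all genes were 13.4%, 48.7% and 31.8%. In each treatment 3 copper genes had an unadjusted p under 0.05. For the scramblases 0 of 6 tested passed in shCtBP2, 4 of 7 in HIPP and 2 of 7 in P4, beside the same shares of all genes. An unadjusted p under 0.05 was seen for 1, 4 and 3 of them.

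CtBP proteins are brought to promoters by DNA-binding factors such as ZEB1, which reads the E-box CACCTG. The 250 bases before each gene start were searched for CACCTG on both strands (CAGGTG on the other), in RefSeq promoters of build GRCh38.p14. Of 41 promoters of the 28 pumps with an entry, 7 (17.1%) held it, beside 6143 of 35116 promoters in all (17.5%). ATP2C2 had no entry. The windows are shown for the 3 called pumps, 5′ to 3′, with the motif in capitals.
ATP12A, chr13:24680158-24680407, plus strand: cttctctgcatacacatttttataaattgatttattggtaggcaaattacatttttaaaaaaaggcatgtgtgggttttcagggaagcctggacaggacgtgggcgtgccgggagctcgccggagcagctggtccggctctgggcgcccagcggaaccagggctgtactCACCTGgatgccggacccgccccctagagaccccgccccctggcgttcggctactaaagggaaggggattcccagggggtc
ATP8A2, first start, chr13:25371724-25371973, plus strand: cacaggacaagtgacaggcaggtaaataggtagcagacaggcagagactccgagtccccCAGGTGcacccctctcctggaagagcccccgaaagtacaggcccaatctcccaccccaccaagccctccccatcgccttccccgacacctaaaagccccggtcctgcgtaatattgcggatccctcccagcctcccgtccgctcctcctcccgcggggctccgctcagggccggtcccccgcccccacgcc
ATP10A, chr15:25863328-25863577, minus strand: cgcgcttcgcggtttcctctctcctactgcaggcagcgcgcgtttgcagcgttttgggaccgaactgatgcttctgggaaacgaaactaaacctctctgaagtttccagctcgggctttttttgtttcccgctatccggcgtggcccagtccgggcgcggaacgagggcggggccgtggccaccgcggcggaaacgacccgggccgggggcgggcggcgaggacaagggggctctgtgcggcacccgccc
The motif began 81 bases before the start of ATP12A and 191 bases before the first start of ATP8A2. The second start of ATP8A2 and the window of ATP10A held 0 copies. A match of 6 letters is a description of the sequence, and binding was not measured.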

How the data were processed

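The authors labelled treated RNA with Cy5 and control RNA with Cy3, hybridised both to 2-colour Agilent arrays and extracted spot intensities with Agilent Feature Extraction. The deposited scanner files hold processed red and green signal intensities per spot, background-subtracted and dye-normalized, and the deposited series matrix holds log10 ratios of red over green, used as an alternative. From these, log2 of the processed red over green signal was taken, control spots and spots flagged as non-uniform or population outliers were left out, and spots were averaged per probe and probes per gene. Genes measured on at least 3 of 5 arrays with an interquartile range over the 10 channel signals above the 11th percentile were tested with limma 3.58.1 in R 4.3.3, in 1 fit of 15 arrays, each treatment's mean ratio against 0, with Benjamini-Hochberg adjustment over 27582 genes per treatment. The fold change thresholds were those of the study's methods. Scripts were tested on simulated data with known changes. Pumps called in a treatment were described array by array, the others by class, and listed partner genes where called. The members and the lists were chosen with earlier results of these data known. Each array's median ratio was not reset to 0. Same-numbered shCtBP2 and P4 arrays deviated together (r of 0.14 to 0.34 over genes), the other pairs less regularly (r of 0.07 to 0.30 and -0.01 to 0.46), and the labels gave no shared day or batch to the numbers. Some differently numbered shCtBP2 and P4 arrays did so too (r of 0.19 for shCtBP2 2 with P4 1, and for shCtBP2 3 with P4 5). Others went the opposite way (r of -0.26 for shCtBP2 2 with P4 5), so no pairing by number is read. A further marker gene was examined and is not reported here.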

Additional observations from a re-analysis of the deposited data

Results flagged for a closer look

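Single arrays stood apart from the other 4 of their treatment for 4 pumps, among 90 sets of 5 arrays examined, where chance alone sets 1 in about 20 apart. The log2 ratio of ATP11B in HIPP replicate 4 was -0.11, that of ATP12A in P4 replicate 1 was -1.43, that of ATP2C1 in P4 replicate 1 was -0.23 and that of ATP4A in shCtBP2 replicate 2 was -0.38, each the lowest of its set.

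The ratios of 7 pumps differed between treatments by a limma contrast. HIPP was higher than shCtBP2 by a log2 difference of 1.20 for ATP9A and 0.97 for ATP10A. The fitted difference was -0.77 for ATP2A3, -1.93 for ATP8A2 and -2.09 for ATP12A, whose probes were well above background on 0, 0 and 1 of 5 HIPP treated channels. With slide as a fixed block the limma adjusted p was 0.0981 for ATP9A, 0.145 for ATP10A, 0.434 for ATP2A3, 0.26 for ATP12A and 0.00584 for ATP8A2, whose sign is not read because its shCtBP2 control channels were at background too. P4 differed from shCtBP2 by 1.62 for ATP10A, -1.87 for ATP12A and 0.75 for ATP13A2. HIPP differed from P4 by 0.90 for ATP9A and -0.56 for ATP2C1.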

How the results depend on the processing

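Of the results for single pumps under the alternatives, 273 kept their direction and side of the threshold, 89 kept the direction only and 6 turned. Members called in shCtBP2 (4, with 1807 of all genes) were 0 with normexp correction (offset 50) and loess (269 of all genes), 2 with background-subtracted signals (1808) and 2 with the methods' t-test (969), and 3 to 5 without 1 array. In HIPP (0 called, with 1944 of all genes) they were 1 with background-subtracted signals (2091), 2 with the brightest probe (2229) and 5 at a fold change of 1.5, and 0 to 2 without 1 array (1 without replicate 1, 3 or 5 and 2 without replicate 4). In P4 (0 called, with 2333 of all genes) they were 1 with the brightest probe (2535), 1 with slide as a random block (2399) and 1 at a fold change of 1.5, and 0 to 1 without 1 array (1 without replicate 1, 4 or 5).

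Members past the adjusted p in shCtBP2 (8, with 3694 of all genes) were 3 with normexp (2442), 5 with background-subtracted signals (3678), 3 with the methods' t-test (1927) and 4 to 5 without any 1 of the 5 arrays. In HIPP (11, with 13429) they were 5 with normexp (9365), 2 with the methods' t-test (5117) and 9 to 13 without 1 array. In P4 (3, with 8776) they were 6 with the brightest probe (9011), 6 with the replicate block (11422), 1 with slide as a fixed block (3068), 0 with the treatment's arrays alone (4268), 0 with the methods' t-test (1272), and 2 to 6 without 1 array (6 without replicate 1).

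Partner genes called in shCtBP2 (4) were 0 with normexp, 2 with no interquartile range filter, 2 with genes well above background only, 2 with the series matrix, 1 with the treatment's arrays alone, 1 with the methods' t-test and 1 to 5 without 1 array (1 without replicate 1 or 4, 2 without replicate 2). In HIPP (1) they were 0 with normexp and 6 at a fold change of 1.5. In P4 (2) they were 0 with normexp, well above background only, the treatment's arrays alone or the methods' t-test, and 1 to 3 without 1 array (1 without replicate 1, 2 or 4).

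Pumps that differed between HIPP and shCtBP2 (5) were 3 with background-subtracted signals, 9 with no interquartile range filter, 8 with the replicate block, 3 with slide as a fixed block (ATP8A2, which is among the 5, and ATP2B1 and ATP2B2, which are not) and 4 to 6 without 1 array. Between P4 and shCtBP2 (3) they were 0 with slide as a fixed block and 2 to 4 without 1 array. Between HIPP and P4 (2) they were 1 with normexp, 4 with no interquartile range filter, 4 with the replicate block, 0 with slide as a fixed block and 0 to 3 without 1 array (0 without P4 replicate 3, and 1 without HIPP replicate 2, 3 or 5 or P4 replicate 4 or 5).

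ATP2A3 in HIPP turned to 0.0029 with normexp, ATP11A in HIPP to -0.0169 with normexp and -0.37 on probe 3, ATP2C1 in HIPP to 0.16 on its brightest probe (probe 3), and ATP10A in HIPP to 0.0488 on probe 3. The cause was not tested. With the replicate block, counts of called members stayed at 4, 0 and 0, and 3 pumps again differed between P4 and shCtBP2. The single-probe fits, the series matrix, the treatment's arrays alone, the methods' t-test and slide blocks for partner genes, and for differences between treatments the signals, filters, brightest probe, matrix and left-out arrays, were chosen after seeing the data. Dim signals limit the results for ATP2C2, ATP8A2, ATP12A, ATP2A3 and ATP4A.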

Other observations

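Some listed partner genes passed the adjusted p at changes below the fold thresholds. MCU, the pore of the mitochondrial calcium uniporter, was lower on 5 of 5 arrays in shCtBP2 (-0.55 ± 0.26, limma adjusted p = 0.0122, n = 5), HIPP (-0.70 ± 0.28, limma adjusted p = 0.000468, n = 5) and P4 (-0.57 ± 0.32, limma adjusted p = 0.00475, n = 5). SLC8B1, the mitochondrial sodium/calcium exchanger, was higher on 5 of 5 arrays in HIPP (0.82 ± 0.21, limma adjusted p = 3.86e-06, n = 5). Among the copper genes, CCS, the chaperone that loads superoxide dismutase, was higher on 5 of 5 arrays in HIPP (0.70 ± 0.15, limma adjusted p = 9.21e-06, n = 5) and in P4 (0.41 ± 0.15, limma adjusted p = 0.0023, n = 5). Among the scramblase list, PLSCR1 was lower on 5 of 5 arrays in HIPP (-1.16 ± 0.31, limma adjusted p = 3.13e-06, n = 5), and XKR8, which scrambles lipids in apoptosis, was higher on 5 of 5 (0.61 ± 0.21, limma adjusted p = 9.65e-05, n = 5). These genes were chosen after their values were seen.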
